A study of Mus musculus with 18 samples.

Results

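Colon epithelial cells of mice that lacked Mbd2 were compared with those of wild type (WT) mice after both had drunk 2% dextran sulfate sodium (DSS), a polymer that injures the colon epithelium and gives colitis. The comparison takes the 10 arrays of DSS-treated mice among the 18 arrays of the series. Averaging the arrays labelled 4R and 5R with arrays 4 and 5, as repeats of the same samples, left 8 samples of 16: 4 Mbd2KO (labelled DSS_KO, 5 to 8) and 4 WT (labelled DSS_WT, 1 to 4). The other 8 samples, 4 of each genotype, came from mice given no DSS. The KO mice carried a germline Mbd2 deletion in every cell type, on the C57BL/6 background, and were co-housed with WT littermates. DSS was given in the drinking water for several consecutive days until harvest, and the labels give no age. Each sample was pooled from 1 to 5 mice, and epithelial cells were purified by flow cytometry as EpCAM+ cells lacking CD45, CD3 and F4/80. RNA was hybridized to Illumina mouse bead arrays of 45281 probes, of which 21938, measuring 15757 genes, were detected (detection p under 0.05) on at least 4 arrays and were tested.

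MBD2 is a reader of DNA methylation: it binds methylated CpG sites and brings in the nucleosome remodelling and deacetylase complex NuRD, which is known for silencing genes. Intestinal epithelial cells carry MHC class II molecules, which present peptides to CD4+ T cells, and interferon gamma is the known inducer of these molecules through the co-activator CIITA. DSS damages the epithelial barrier, so the cells that survive meet bacteria and inflammatory cytokines and take part in repair.

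The 2 genotypes separated on the first principal component of the 8 DSS samples, which held 45.5% of the variance. The 4 WT samples lay between -57.9 and -12.0 on it, WT 2 being the farthest out, and the 4 KO samples between 22.2 and 33.2. The genotype could not be checked on these arrays, because the single Mbd2 probe was detected on 0 of the 18 arrays, its lowest detection p being 0.151. Epithelial genes were at high levels: the means of 20 epithelial identity genes ran from 11.6 to 11.7 on the log2 scale in every DSS sample, 0 of the 20 passed the test, and their median difference was 0.05. That median turned to -0.05 with median scaling, a scaling which also moved the median of all genes from -0.02 to -0.10. Ptprc, which encodes CD45, was detected on 1 of the 5 DSS_WT arrays and 2 of the 5 DSS_KO arrays. Markers of other cells were present as well: the macrophage markers Cd68, Csf1r, Adgre1 and C1qa were detected on all 10 DSS arrays, and the smooth muscle and fibroblast genes Acta2 and Dcn had WT means of 12.03 and 12.06.

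A gene was called changed when limma gave an adjusted p under 0.01 and its difference between genotypes was at least 1 on the log2 scale, using the brightest probe of each gene. By this rule 74 genes were higher in KO, which is 0.470% of those tested, and 66 were lower, which is 0.419%. The higher set had a median difference of 1.55, with 26 genes at 2 or above, and the lower set a median of -1.27, with 7 genes at -2 or below. Over all genes the median was -0.02 and the median size of a difference was 0.17. At an adjusted p under 0.05, with no bound on size, 327 genes were higher (2.08%) and 555 lower (3.52%). The 4 KO values lay wholly above or below the 4 WT values in 139 of the 140 called genes, against 2354 of all genes (14.9%), and the exception was Tgm3. The calls were made on these same values, so this separation largely follows from the call and is no separate support for it. Of the 140, 12 were called under all 29 alternative processings: H2-DMb1, H2-DMb2, Ciita, H2-DMa, Cd74, H2-Q8, 0610037M15Rik and Art2b among those higher, and Scgb2b27, Ghr, Ttr and Gde1 among those lower. Most of those that stayed higher are genes of antigen presentation. The 4 that stayed lower were in none of the gene lists, and Ttr, the transthyretin gene, and Ghr, the growth hormone receptor gene, were the largest after Scgb2b27 (-1.67 and -1.68). Of the 140 calls, 29 held whichever of the 8 DSS samples was left out, and the total of called probes depended strongly on KO 5: 189 probes were called with it and 46 without it, with 54 called when WT 2 was left out instead.

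**Figure D1:**
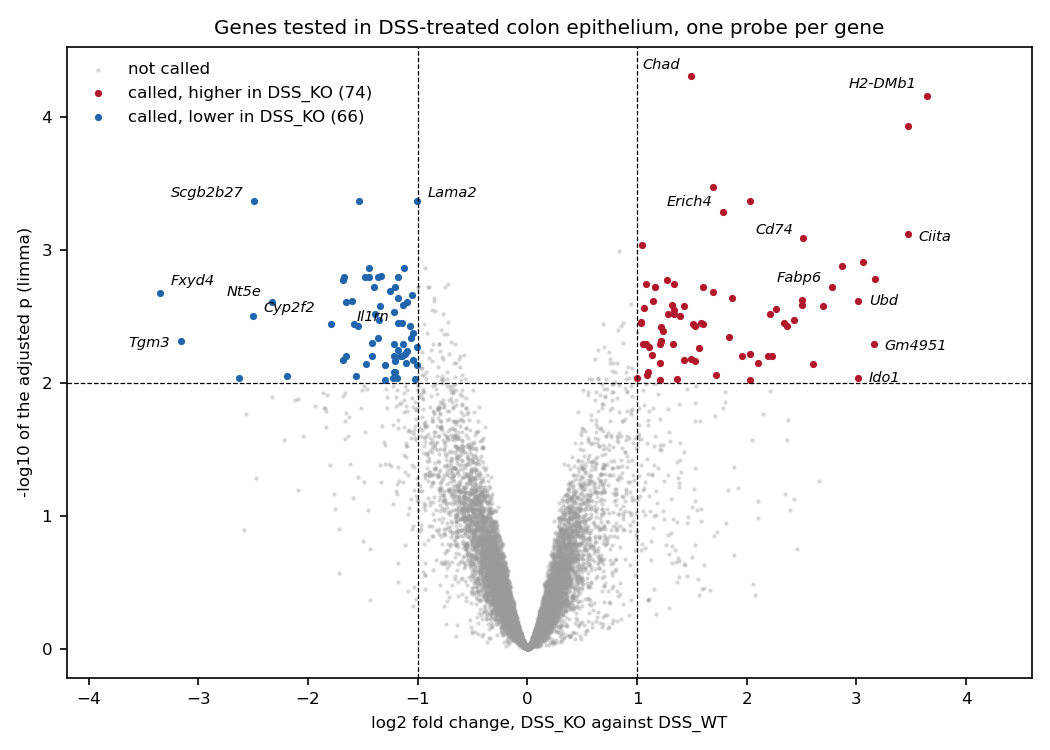
Every tested gene by its log2 fold change (x axis, DSS_KO against DSS_WT) and -log10 of limma's adjusted p (y axis), with dashed lines at the call thresholds. The 74 red points were called higher and the 66 blue points lower. Among them H2-DMb1, H2-DMb2 and Ciita, of the MHC class II list, sit farthest to the right, and Fxyd4 and Tgm3 farthest to the left.

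Of the 45 gene lists examined, MHC class II had the highest median difference. Of 10 tested genes, 9 were called higher, with a median difference of 2.47 against -0.02 for all genes. H2-DMb1 and H2-DMb2 encode beta chains of H2-DM, which exchanges peptides on class II molecules. H2-DMb1 stood at 8.13, 7.50, 8.23 and 7.95 (log2 intensity) in WT 1 to 4 and at 11.58, 11.17, 11.87 and 11.75 in KO 5 to 8, a 12.5-fold difference (log2 3.64, SE 0.339, adjusted p = 6.94e-05). All 4 KO samples lay far above all 4 WT samples, and the spread within each group was small. Its neighbour H2-DMb2 rose by 3.47 (adjusted p = 0.000117), with a second, dim probe at 0.27. H2-DMa, the alpha chain, rose by 2.87 (adjusted p = 0.00132).

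Ciita, the co-activator that switches class II genes on, was close to the detection limit in WT, at 5.44, 4.55, 5.78 and 5.48. In KO it stood at 9.22, 8.08, 9.29 and 8.55, an 11.1-fold difference (log2 3.47, SE 0.434, adjusted p = 0.00076) that was 1.99 on the log2 scale without background correction. WT 2 held the lowest WT value and KO 6 the lowest KO value, and the groups stayed apart. Cd74, the invariant chain that chaperones class II molecules, went from 11.47, 11.45, 12.41 and 11.81 in WT to 14.20, 14.13, 14.47 and 14.40 in KO (difference 2.52, adjusted p = 0.000806). Its KO values lay near the top of the scale, where the brightest gene of the arrays had a mean of 14.8. The chains of the classical class II molecules themselves, H2-Aa, H2-Ab1 and H2-Eb1, rose by 2.34 to 2.43 from WT means that were already at 10 or above. These are smaller differences than those of the H2-DM genes and Ciita, though the gap itself was not tested. H2-Eb2 rose by 1.72, a size that is uncertain because its probe was detected on 1 of 5 DSS_WT arrays. Its 2 other probes, dimmer on average, stood at 0.25 and 0.30. Of the 8 fits that each left out 1 DSS sample, Ciita, Cd74 and the 3 H2-DM genes were called in all, H2-Aa in 5, H2-Ab1 and H2-Eb1 in 2 each and H2-Eb2 in 1. The remaining gene, H2-Oa, whose product restrains H2-DM, stood at -0.12.

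**Figure D2:**
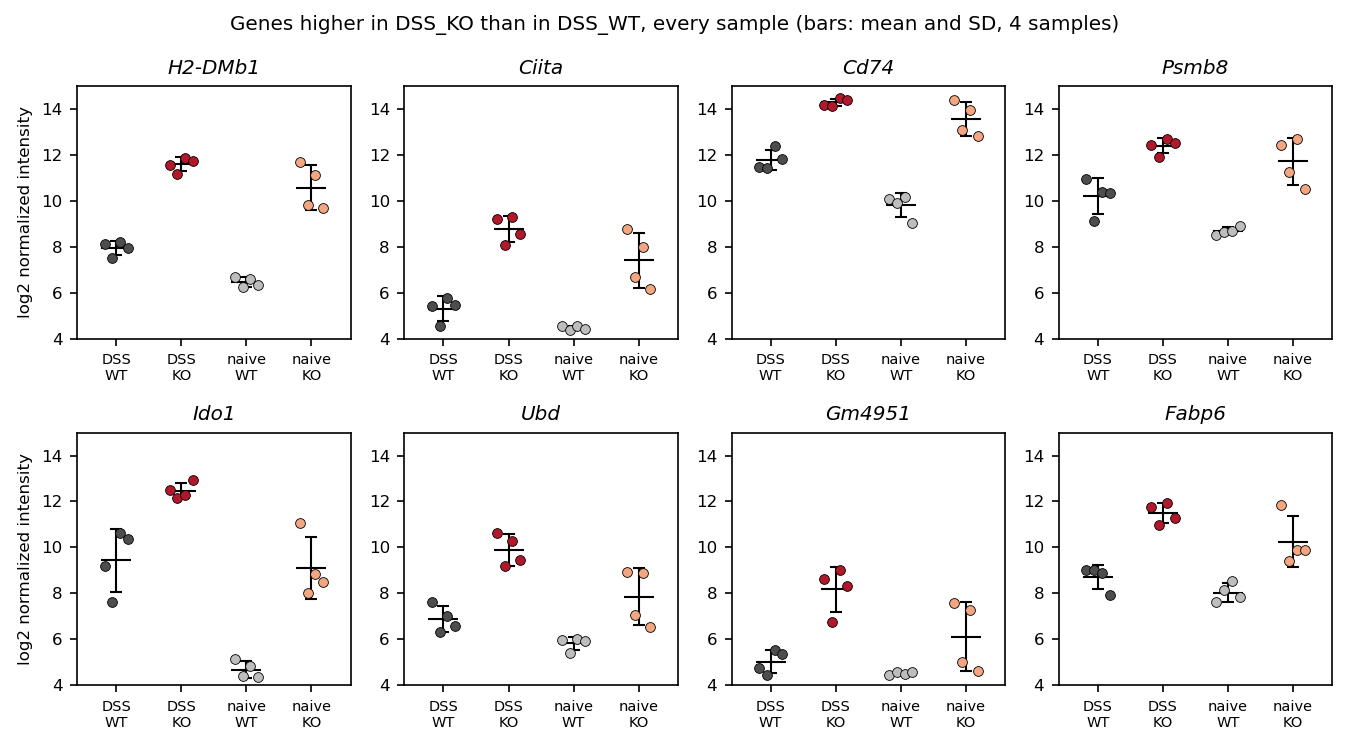
Log2 normalized intensity (y axis) of 8 genes in each sample, with the mean and SD of 4 samples per group (x axis, DSS_WT, DSS_KO and the mice without DSS). In each panel the 4 DSS_KO points lie above all 4 DSS_WT points, and WT 2 (the second point of the first group) is the lowest DSS_WT point in every panel but that of Fabp6.

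Promoters of 4 class II genes called higher are shown because they carry a short shared element. RefSeq promoters (GRCm38.p6, 250 bases before the start of transcription) were found for 7 of the 10 tested class II genes. Capitals mark the CCAAT box, written CCAAT or, on the other strand, ATTGG, which is the binding sequence of the factor NF-Y.
H2-DMb1 (chr17:34152941-34153190, plus strand): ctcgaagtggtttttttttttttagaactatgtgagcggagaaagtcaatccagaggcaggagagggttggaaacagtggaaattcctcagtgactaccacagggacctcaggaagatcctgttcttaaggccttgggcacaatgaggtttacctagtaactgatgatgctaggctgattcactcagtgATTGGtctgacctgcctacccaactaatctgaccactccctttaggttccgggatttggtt
H2-DMb2 (chr17:34144999-34145248, plus strand): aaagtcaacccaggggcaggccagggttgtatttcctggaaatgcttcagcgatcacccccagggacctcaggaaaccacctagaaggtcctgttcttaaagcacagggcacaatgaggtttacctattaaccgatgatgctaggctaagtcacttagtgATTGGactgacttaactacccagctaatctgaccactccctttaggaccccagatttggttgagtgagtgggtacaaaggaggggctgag
H2-Aa (chr17:34287824-34288073, minus strand): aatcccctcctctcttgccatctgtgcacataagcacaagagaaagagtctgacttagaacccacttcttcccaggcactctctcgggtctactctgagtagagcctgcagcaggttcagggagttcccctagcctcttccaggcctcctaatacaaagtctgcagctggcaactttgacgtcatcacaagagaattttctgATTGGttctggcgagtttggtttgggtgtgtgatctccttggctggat
H2-Eb1 (chr17:34305617-34305866, plus strand): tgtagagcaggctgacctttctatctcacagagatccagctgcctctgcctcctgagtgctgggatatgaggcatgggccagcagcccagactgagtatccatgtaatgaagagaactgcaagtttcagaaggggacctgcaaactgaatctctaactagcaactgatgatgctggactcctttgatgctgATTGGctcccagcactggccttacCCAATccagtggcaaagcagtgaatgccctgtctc
The box began 61 bases before the start in H2-DMb1, 90 in H2-DMb2, 48 in H2-Aa, and 59 and 35 in H2-Eb1. Searched on both strands over the 250 bases before and 50 after the start, CCAAT was present in 6 of the 7 class II promoters, the exception being that of H2-DMa, which also held 29 CpG in this window. Among all 9431 promoters matched to tested genes, 38.6% held it, against 24 of 42 (57.1%) for genes called higher and 13 of 45 (28.9%) for genes called lower. The interferon-stimulated element GAAANNGAA was in 7.3% of all promoters, 9.52% of those of higher genes and 6.67% of those of lower genes. The gamma-activated site TTCNNNGAA was in 6.95%, 11.9% and 4.44% of the same sets. These are matches of letters, not measured binding.

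MHC class I genes present peptides to CD8+ T cells. Of 16 tested, 7 were called higher, none lower, 14 were positive and the median was 0.95. H2-Q8, a non-classical class I gene, stood at 6.95, 6.67, 7.22 and 7.35 in WT and at 10.36, 9.57, 10.36 and 10.57 in KO (difference 3.17, adjusted p = 0.00164). H2-Q6 rose by 2.51, H2-Q7 and H2-K1 by 1.53 each, H2-T10 by 1.49, H2-T23 by 1.11 and H2-K2 by 1.07. The call of H2-Q8 held in all 8 fits that left out 1 DSS sample, that of H2-Q6 in 6, that of H2-T10 in 1 and that of H2-K1 in 0. B2m, their common light chain, was 0.83 higher (adjusted p = 0.00398), below the size bound. Cd1d1, which presents lipids, went the other way at -0.47 (adjusted p = 0.045). Class I genes are near-identical in stretches, so a probe may read more than its own gene: 0610037M15Rik, listed as a synonym of H2-Q6, rose by 3.06.

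Genes that prepare class I peptides were higher in KO too, with 2 calls. Nlrc5, the co-activator of class I genes, stood at 5.76, 5.28, 6.30 and 6.47 in WT and at 8.51, 7.62, 8.23 and 8.36 in KO (difference 2.23, adjusted p = 0.00628). Psmb8, an interferon-induced subunit of the immunoproteasome, stood at 10.97, 9.12, 10.40 and 10.35 in WT and at 12.45, 11.93, 12.68 and 12.53 in KO (difference 2.19, adjusted p = 0.00621). WT 2 was again the lowest sample for both. These were the only 2 of 13 processing genes to be called, although all 13 were positive and 9 had an adjusted p under 0.05. In the 8 fits that each left out 1 DSS sample, Psmb8 was called in 2 and Nlrc5 in 1. Tapbpl, a relative of the loading factor tapasin, was called only at a dimmer probe (1.55, against 0.94 at its brightest). Among those 9, Psmb9, another immunoproteasome subunit, stood at 1.81, and the peptide transporter genes Tap1 and Tap2 at 1.57 and 1.53. By contrast 0 of the 11 constitutive proteasome genes had an adjusted p under 0.05, and their median was 0.09, or -0.01 with median scaling.

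Among listed interferon-induced genes, 3 GTPases and the enzyme Ido1 were called higher, while listed receptors and signalling factors gave no calls. Of the 8 fits that each left out 1 DSS sample, Gbp10 was called in 4, Gm4951 in 2, Ido1 in 1 and Ifi47 in 0. Outside the list, the large interferon-inducible GTPase gene Gvin1 (1.32) and the GTPase gene Gm4841 (2.27) were also called higher, and held in 7 and 5 of the 8 fits. Gm4841 was detected on 1 of 5 DSS_WT arrays, so the size of its difference is uncertain. Of 11 tested GTPases of the immune defence families, 3 were called (Gm4951 3.16, Ifi47 2.03 and Gbp10 1.39), all 11 were positive and the median was 1.40. Without background correction these 3 stood at 1.65, 1.77 and 0.53, and of them only Gm4951 was still called. Gm4951 went from 4.75, 4.44, 5.53 and 5.34 in WT to 8.64, 6.76, 9.00 and 8.30 in KO (adjusted p = 0.00504). Its values in WT were near background, with 3 of 5 arrays detecting it. Ido1 encodes indoleamine 2,3-dioxygenase, which breaks down tryptophan. It was the most variable of the large risers: WT values were 9.17, 7.62, 10.63 and 10.36, and KO values 12.49, 12.14, 12.29 and 12.93 (difference 3.02, SE 0.603, adjusted p = 0.00916). Of 21 interferon receptors, kinases and transcription factors, 0 were called and 4 had an adjusted p under 0.05, all higher in KO. They included Irf7 (0.90), Irf8 (0.78) and Stat2 (0.69), the list median being 0.06, or -0.06 with median scaling. Of 26 type I interferon-induced antiviral genes, 0 were called and 7 had an adjusted p under 0.05, led by Usp18 (1.28) and Ifit2 (1.19), with a median of 0.56.

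Several called genes that rose lie outside these lists. Ubd encodes FAT10, a ubiquitin-like tag that sends proteins to the proteasome. It stood at 7.60, 6.30, 6.99 and 6.57 in WT and at 10.64, 9.18, 10.26 and 9.46 in KO (difference 3.02, adjusted p = 0.00242). Fabp6, the bile acid binding protein of the distal small intestine, stood at 9.00, 9.03, 8.88 and 7.92 in WT and at 11.77, 10.96, 11.92 and 11.30 in KO (difference 2.78, adjusted p = 0.00188). The groups were apart for both genes, and WT 4 lay below the other WT samples for Fabp6. C2, a complement protease encoded beside the class II genes, rose by 2.22. Art2b, a surface ADP-ribosyltransferase, rose by 2.03.

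Smaller rises included Chad (chondroadherin, a matrix protein), which had the lowest adjusted p of all genes, 4.87e-05, with a fitted difference of 1.49. Its WT values, 4.51 to 4.73, were near background, being detected on 1 of 5 arrays, so that this size is uncertain. Lpo (lactoperoxidase, an antimicrobial enzyme) rose by 1.59, Mmp7 (the matrix metalloproteinase matrilysin) by 1.57, and the protease inhibitor Wfdc12 by 1.96. Nos2, the inducible nitric oxide synthase, was detected on 0 of 5 DSS_WT arrays and on all 5 DSS_KO arrays, and was at least 1.91-fold higher in KO (adjusted p = 0.00301). Kif26a, a kinesin family gene, was likewise undetected on every DSS_WT array and at least 1.78-fold higher (adjusted p = 0.00188). Both bounds set the KO mean against the dimmest signal still detected on the WT arrays, and they hold only for the processing as reported. Without background correction Nos2 stood at 0.43 on the log2 scale and was not called. Cd177, a surface protein also known from neutrophils, rose by 1.09. A pair of probes for the constant region of immunoglobulin gamma 1, Ighg1, rose by 2.60 and 2.69, from WT levels detected on 2 and 1 of 5 arrays. KO 6 gave the lowest KO value at both, 6.41 and 6.40, and WT 3 the highest WT value, 6.18 and 5.51. The B and plasma cell list did not move with them to a call: 6 of its 18 genes were tested, 0 were called and their median was 0.13. Its marker Ms4a1 was detected on 0 DSS arrays, and Jchain on 2 DSS_WT and 4 DSS_KO arrays.

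Antimicrobial genes, chemokines and cytokines gave few calls. Of 22 antimicrobial and Reg family genes only Nos2 was called (median 0.37). Reg3b, an antibacterial lectin, ran from 13.76 to 14.56 in WT and from 14.18 to 14.77 in KO (difference 0.08), whereas without DSS it ran from 9.36 to 11.92 in WT and from 12.35 to 14.45 in KO (difference 2.99, adjusted p = 0.00229). DSS_WT samples thus already held it near the top of the scale. Of 19 listed chemokines 0 were called in either direction. Outside the list the chemokine gene Ccl17 was called lower, being detected on all 5 DSS_WT arrays and on 0 of 5 DSS_KO arrays. With the processing as reported it was at least 1.56-fold lower in KO (adjusted p = 0.00418 in limma). Cxcl9, an interferon-induced chemokine, had a difference of 1.92 that did not pass. Cxcl12 and Cxcl14 were lower, at -0.95 and -0.84, with adjusted p under 0.05. Of 19 epithelial cytokine genes, only Il1rn was called. It encodes the interleukin 1 receptor antagonist, which blocks interleukin 1 signalling, and fell from 10.03, 10.36, 9.55 and 9.79 in WT to 8.64, 8.10, 8.52 and 7.85 in KO (difference -1.66, adjusted p = 0.00245). All WT samples lay above all KO samples, while 1 of its dim probes stood at 0.11. Il7 and Il18 were at -0.78 and -0.87, and Tnf at 0.69, each with an adjusted p under 0.05 and below the size bound.

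Genes called lower by more than 2 on the log2 scale included Fxyd4, Tgm3, Cyp2f2, Scgb2b27 and Nt5e, and the sizes for Tgm3 and Cyp2f2 are uncertain because these were detected on 2 and 1 of the 5 DSS_KO arrays. Fxyd4, a regulator of the sodium pump, stood at 9.46, 9.21, 8.53 and 7.88 in WT and at 5.25, 4.65, 6.57 and 5.21 in KO, a difference of -3.35 (SE 0.509, adjusted p = 0.00211), or -1.92 and not called without background correction. Tgm3, a transglutaminase that cross-links proteins of cornified surfaces, stood at 9.33, 8.93, 9.06 and 7.47 in WT and at 4.33, 4.74, 7.59 and 5.46 in KO (difference -3.16, adjusted p = 0.00479). It stood at -1.79 and was not called without background correction, and it was called in 2 of the 8 fits that each left out 1 DSS sample. KO 7 was the highest KO sample for both, and for Tgm3 it overlapped WT 4. Nt5e, the ectoenzyme CD73 that makes adenosine, stood at 9.14, 9.17, 8.75 and 8.64 in WT and at 7.02, 6.15, 7.26 and 5.94 in KO (difference -2.33, adjusted p = 0.00245). Scgb2b27, a secretoglobin, was the tightest of the large fallers, at 8.57, 8.87, 8.52 and 8.30 in WT and 6.14, 6.27, 6.33 and 5.55 in KO (difference -2.49, SE 0.289, adjusted p = 0.00043).

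Lists of epithelial function showed few calls around these genes. Of 34 ion and water transport genes, 1 was called (Fxyd4) and 24 were negative, with a median of -0.24. Aqp8, the water channel of colonocytes, was at -2.12 (adjusted p = 0.0135) and Trpm6, a magnesium channel, at -1.51 (adjusted p = 0.0154). Of 25 cytochrome P450 genes, Cyp2f2 (-2.50, detected on 1 of 5 DSS_KO arrays) and Cyp2d22 (-1.29) fell. Outside that list the P450 gene Cyp2d12 (-2.19, detected on 1 of 5 DSS_KO arrays) fell. Without background correction Cyp2f2 stood at -1.06, Cyp2d12 at -0.93 and Cyp2d22 at -0.87, none of them called. Cyp2f2 was called in 5, Cyp2d12 in 2 and Cyp2d22 in 1 of the 8 fits that each left out 1 DSS sample. Among esterases and oxidases Ces2g (-1.79, with a dim probe at -0.17) and Maob (-1.68) fell. Of 17 genes of fetal-like repair and EGFR ligands, Il1rn was the 1 called, 6 had an adjusted p under 0.05, all lower, and the median was -0.56. Those included the cornified envelope gene Sprr1a (-1.47) and the EGFR ligand genes Btc (-0.85) and Areg (-0.81). Cldn4, a tight junction claudin, was at -1.66 (adjusted p = 0.0191), the only 1 of 25 junction genes with an adjusted p under 0.05. Of 22 enteroendocrine genes 0 were called and 18 were negative (median -0.53). Of 15 goblet cell genes 0 were called (median -0.12), and of 23 replication and mitosis genes 0 had an adjusted p under 0.05 (median 0.10, or -0.03 with median scaling).

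**Figure D3:**
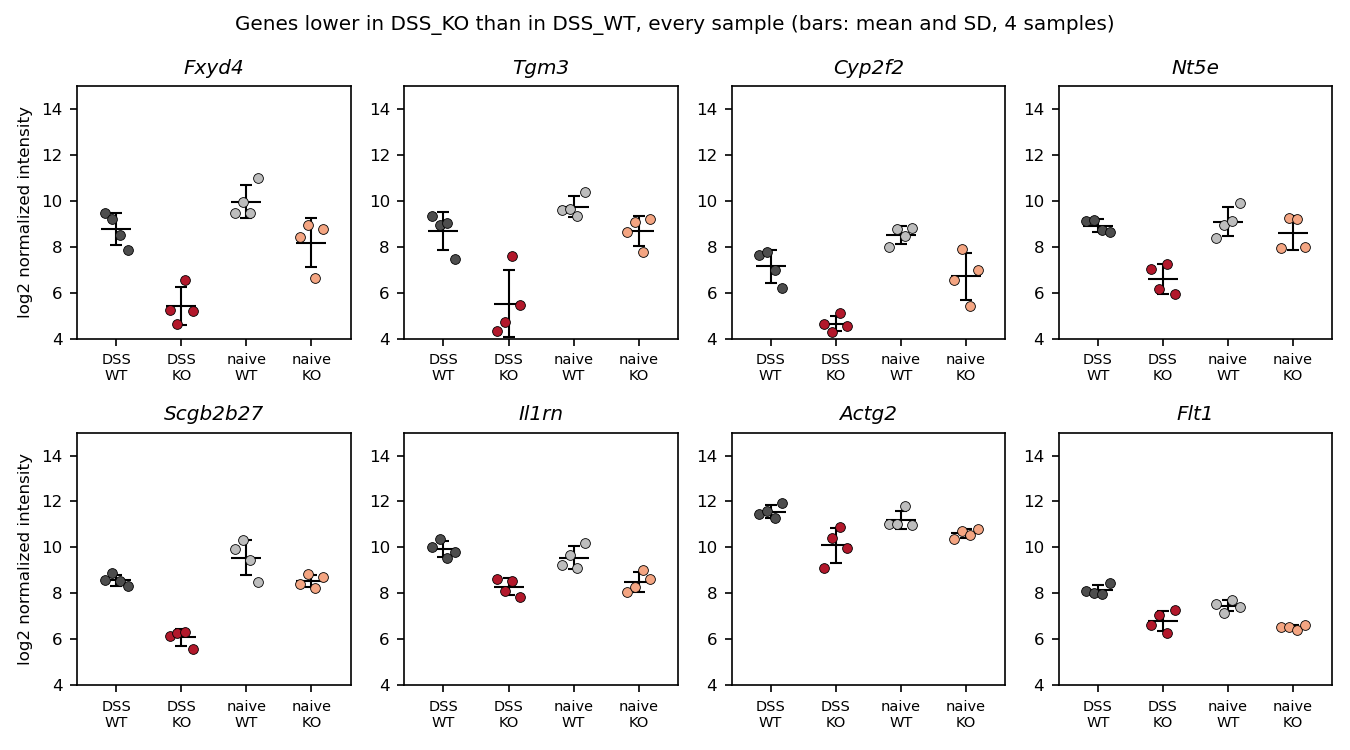
Log2 normalized intensity (y axis) of 8 genes lower in DSS_KO, in each sample, with the mean and SD of 4 samples per group (x axis). In the Tgm3 panel the highest DSS_KO point (KO 7, 7.59) lies above the lowest DSS_WT point (WT 4, 7.47), and in the other 7 panels the groups do not overlap.

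Markers of smooth muscle, fibroblasts and endothelium had mostly negative differences, and some were called lower. Of 16 smooth muscle genes, Tagln (-1.60), Actg2 (-1.47) and Myh11 (-1.36), all of the contractile apparatus, were called lower, 15 were negative and the median was -0.76. The summed linear level of the list ran from 18192 to 24313 in WT and from 10584 to 15166 in KO. Of 33 fibroblast and matrix genes, Col6a2 (-1.21) was called, 12 had an adjusted p under 0.05, all lower, and 32 were negative (median -0.73), the summed level being 20057 to 27879 in WT and 12473 to 18298 in KO. Of 19 endothelial genes, Flt1, Robo4, Esam, Emcn, Eng and Tek were called lower, 18 were negative (median -0.77), and the summed level was 2502 to 3618 in WT and 1439 to 2035 in KO. By these sums the highest KO sample lay below the lowest WT sample in each of the 3 lists. By the mean of log2 values the fibroblast and matrix list overlapped, KO 8 at 8.25 lying above WT 1 at 8.22, and the other 2 lists did not. Of the 8 fits that each left out 1 DSS sample, Flt1 was called in all, Esam in 7, Tagln and Tek in 6, Myh11 in 5, Robo4 and Eng in 4, and Actg2, Col6a2 and Emcn in 1. Without background correction Tagln stood at -0.77, Col6a2 at -0.71, Flt1 at -0.85 and Emcn at -0.54, none of them called. With the processing as reported, a dimmer second probe stood at -0.29 for Tagln and at -0.45 for Col6a2, neither called. Their defining markers, such as Acta2, Des, Col1a1 and Pecam1, were detected on all 10 DSS arrays, with the exception of Kdr, detected on 4 of 5 arrays of each genotype. Actg2, an actin of visceral smooth muscle, stood at 11.47, 11.57, 11.27 and 11.92 in WT and at 9.11, 10.40, 10.88 and 9.95 in KO. Flt1, a receptor for vascular endothelial growth factor, stood at 8.08, 7.99, 7.97 and 8.46 in WT and at 6.61, 7.03, 6.25 and 7.27 in KO. KO 5 was lowest for Actg2 and KO 7 for Flt1.

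Genes outside the lists, picked from those called lower, included Tnc (-1.41) and Ltbp4 (-1.29) of the matrix and Cav1 (-1.39) of caveolae. Lama2 (a laminin chain, adjusted p = 0.00043 in limma) and Selp (-1.58, P-selectin) were also among them, while the matrix genes Chad and Mmp7 were called higher. Dimmer probes of Ltbp4 stood at -1.06 and -0.37, neither called. Those of Tnc stood at -1.47, which was called, and at 0.10. In sorted bulk samples, fewer cells of a type and less RNA per cell cannot be told apart, and the part of these cells in the genes called lower was not tested. Macrophage and monocyte markers leaned the other way without a call: of 16 tested, 14 were positive, 0 were called and the median was 0.46. The lowest of their summed levels was 4748 in WT and 6932 in KO, the highest 8097 and 7764, so the groups overlapped. The 5 tested neutrophil genes had a median of 0.43, or -0.02 without KO 5, and 0 were called. Of 11 T and NK cell genes 0 were called, and Cd8a was detected on 0 DSS arrays. Macrophages express class II genes, and the sort took out CD45+ and F4/80+ cells. Their markers also leaned higher in KO without DSS, where 13 of the 16 were positive with a median of 0.58, and their part in the class II result was not tested.

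**Figure D4:**
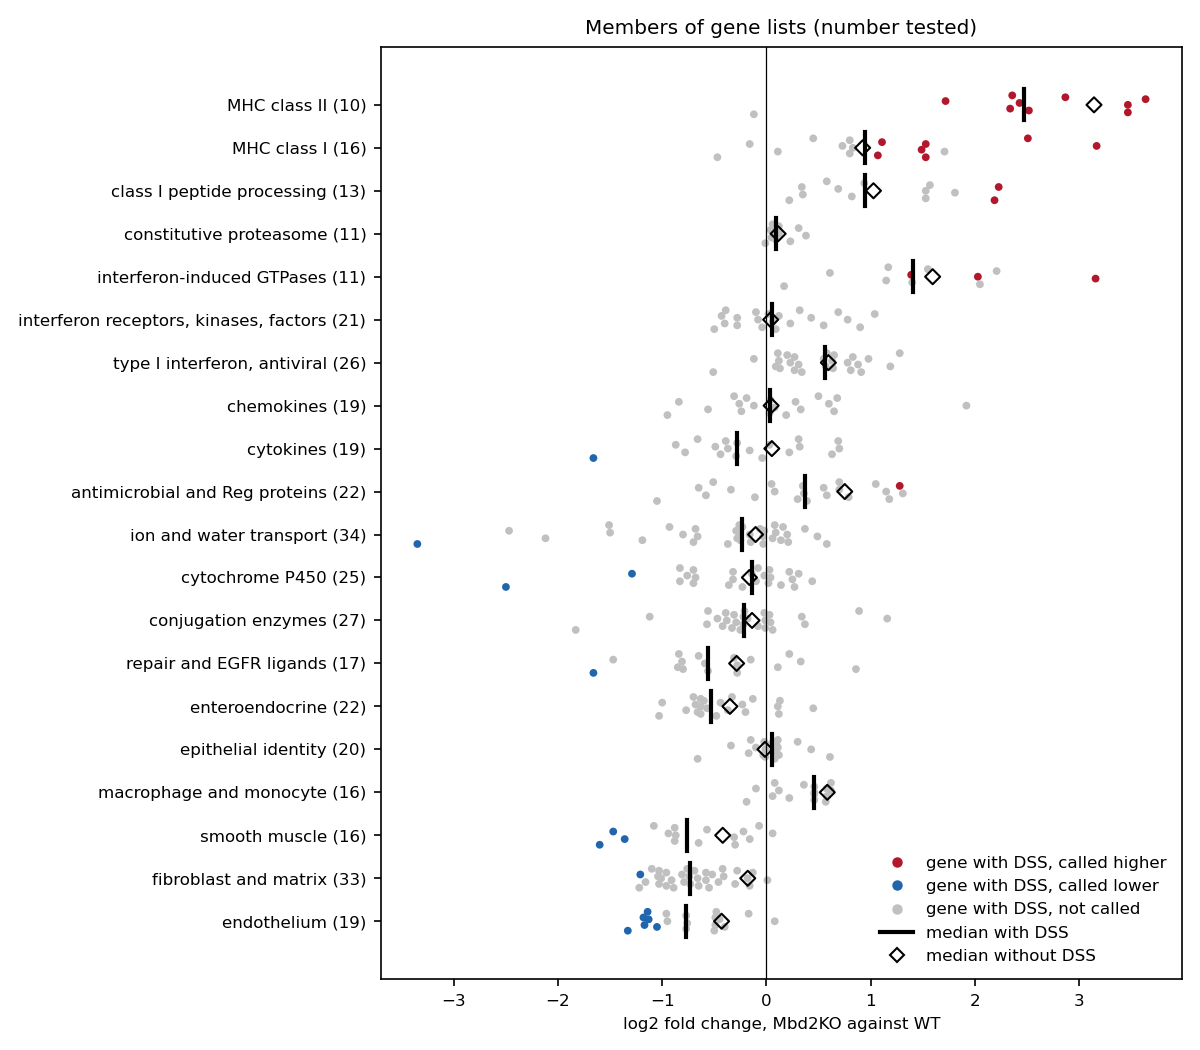
Log2 fold change (x axis) of the tested members of 20 gene lists (y axis) under DSS, with the DSS median as a bar and the median without DSS as a diamond. Class II, class I, peptide processing and GTPase members lie mostly right of 0, smooth muscle, fibroblast and endothelial members left of it, and the constitutive proteasome and epithelial identity lists centre near 0.

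The comparison of the same genotypes without DSS, which shares no sample with this one, gave 67 genes called higher (0.425%) and 47 lower (0.298%). Of the 74 genes higher under DSS, 42 were called higher there too, and the median of the 74 there was 1.24. These overlaps rest on the joint fit of all 4 groups: the calls without DSS numbered 144 probes in it, 39 with only the 2 groups of that contrast fitted, and 73 to 279 when 1 sample was left out. Only Apol10a, an apolipoprotein L gene, had the opposite sign, at -0.08 against 1.04 under DSS, but its probe was detected on 0 arrays of mice without DSS and on 1 of 5 DSS_WT arrays. Of the 66 lower genes, 9 were also called lower without DSS, none had the opposite sign, and the median was -0.83. The class II list had a median of 3.15 without DSS against 2.47 with it. The fibroblast and matrix list had -0.18 against -0.73, the endothelial list -0.43 against -0.77, and the smooth muscle list -0.42 against -0.76.

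No gene was shown to depend on DSS by the test of the difference itself. The interaction of genotype and treatment gave 0 probes with an adjusted p under 0.05 in limma (lowest 0.131), and 2339 of 21938 with an unadjusted p under 0.05. Among the called genes, 19 of the 74 and 27 of the 66 were in that unadjusted range. These genes were called on the same DSS values that enter the interaction, so a raised share can follow from that choice alone. The called genes with the lowest p for the interaction were Apol10a (adjusted p = 0.131 for the interaction in limma) and Lama2, called lower with DSS and at -0.14 without it (adjusted p = 0.17). Nt5e was at -2.33 with DSS and -0.49 without (adjusted p = 0.235), and Snrnp70, a splicing factor gene, at 1.61 and 0.11 (adjusted p = 0.211 for the interaction in limma).

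The promoters of the called genes were described by their CpG content, because MBD2 binds methylated CpG. RefSeq promoters matched 9431 of the 15757 tested genes, 42 of the 74 higher and 45 of the 66 lower. Over the 300 bases from 250 before to 50 after the start, the median number of CpG was 20 for all genes (quartiles 11 and 28), 4 for the higher genes (2.25 and 11) and 6 for the lower genes (3 and 22). Promoters with at most 5 CpG made up 13.3% of all, 59.5% (25) of those of higher genes and 44.4% (20) of those of lower genes. Promoters poor in CpG were thus frequent among genes called in either direction. DNA methylation was not measured in these samples, and no test was run on these shares.

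Promoters of 2 large risers and 2 large fallers show this range, with each CpG in capitals (RefSeq, GRCm38.p6, the 250 bases before the start). Over the printed bases Fabp6 held 2 CpG, Ubd 0, Fxyd4 3 and Nt5e 21.
Fabp6 (chr11:43601563-43601812, minus strand): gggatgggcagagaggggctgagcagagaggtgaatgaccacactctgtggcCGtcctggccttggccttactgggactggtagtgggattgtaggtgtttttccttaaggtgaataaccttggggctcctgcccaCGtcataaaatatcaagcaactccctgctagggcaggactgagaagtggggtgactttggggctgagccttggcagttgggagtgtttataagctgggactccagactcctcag
Ubd (chr17:37193642-37193891, plus strand): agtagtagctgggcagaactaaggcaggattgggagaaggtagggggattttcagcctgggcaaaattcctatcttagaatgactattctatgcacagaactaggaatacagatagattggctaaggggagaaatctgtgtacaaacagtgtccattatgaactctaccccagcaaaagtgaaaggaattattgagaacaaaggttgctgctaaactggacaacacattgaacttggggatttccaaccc
Fxyd4 (chr6:117937336-117937585, minus strand): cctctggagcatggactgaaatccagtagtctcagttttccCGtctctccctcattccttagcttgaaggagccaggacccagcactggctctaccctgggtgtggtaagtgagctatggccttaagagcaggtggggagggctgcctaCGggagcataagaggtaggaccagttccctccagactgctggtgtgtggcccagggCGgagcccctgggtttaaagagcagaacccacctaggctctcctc
Nt5e (chr9:88327359-88327608, plus strand): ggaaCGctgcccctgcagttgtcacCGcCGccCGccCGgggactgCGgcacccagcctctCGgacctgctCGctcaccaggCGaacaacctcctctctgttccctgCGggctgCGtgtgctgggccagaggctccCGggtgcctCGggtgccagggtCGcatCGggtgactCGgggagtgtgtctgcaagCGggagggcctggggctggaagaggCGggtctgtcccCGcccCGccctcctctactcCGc
Nt5e thus carried a CpG-dense promoter beside a fall of 2.33 on the log2 scale, while Fxyd4, with the larger fall, had few.

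**Figure D5:**
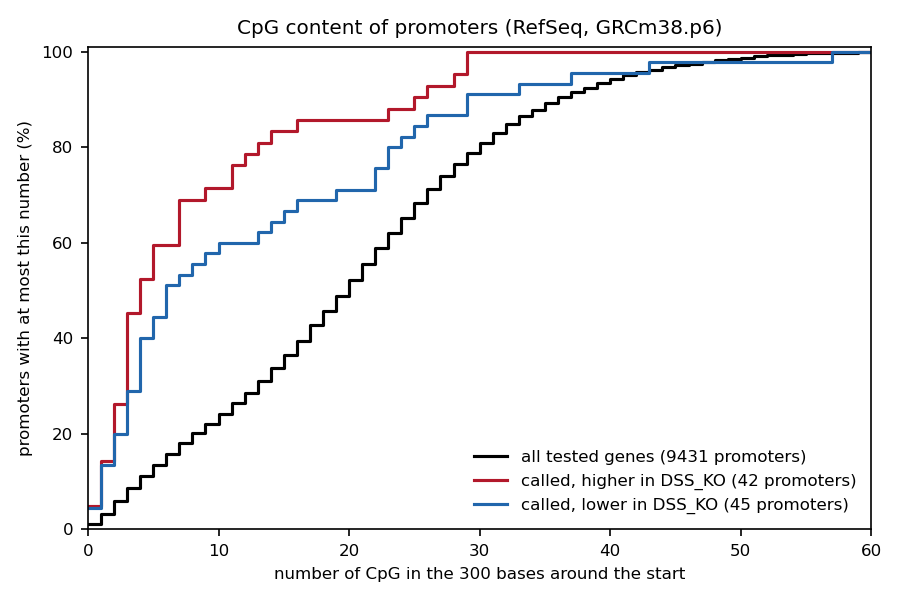
Share of promoters (y axis, percent) with at most the number of CpG on the x axis in the 300 bases around the start, for all tested genes, genes called higher and genes called lower. At 5 CpG the lines stand at 13.3%, 59.5% and 44.4%.

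Called probes were not spread evenly over the genome. By the file's own probe coordinates, whose build is not stated, chromosome 17 held 30 probes called higher and 0 lower of 767 tested (3.91%), against 189 of 21938 tested probes in all (0.862%). Of these, 28 lay among the 188 tested probes between 33 and 38 Mb, the region of the MHC (14.9%), and belonged to 22 genes. The median of all tested probes in that region was 0.15, so most genes there did not share the large differences of the class I and II genes. Within the same stretch lie Ubd, C2 and Btnl2, a butyrophilin-like gene (1.60), which were also called.

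Within 10 Mb of the Mbd2 probe on chromosome 18, 5 of 95 tested probes (5.26%) were called, and the median was -0.01. They came from only 2 genes, Cd74 (3 probes) and the sialyltransferase gene St8sia5 (2 probes, -1.36 at the brightest). The brightest Cd74 probe began at base 60971979, near the edge of this window, and the Mbd2 probe at base 70785451. Gm4841 and Gm4951, also called higher, lay outside the window, at bases 60393988 and 60405881. Chromosome 18 as a whole held 6 probes called higher and 3 lower of 333 (2.70%).

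Probes of a gene did not always move alike. The 140 called genes included 36 with further tested probes, 47 in all, of which 45 had the sign of the brightest probe and 24 were called. Conversely, 21 genes were called only at a probe dimmer than their brightest. Among them were Wars, the interferon-induced tryptophanyl-tRNA synthetase, at 1.61 to 1.77 on 3 probes against 0.67 on the brightest, and Muc1, a membrane mucin, at 1.28 and 1.67 against 1.14. Slc39a5, a zinc importer, stood at 2.31 on 1 dim probe, against 0.37 on the brightest and 0.33 on another. The complement gene C4b stood at 1.23 on 2 probes against 0.28.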

How the data were processed

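Per the labels, total RNA (RNeasy, integrity number over 9) was amplified with TotalPrep kits and hybridized to Illumina mouse bead arrays, and the submitters' processing notes name lumi and limma. The authors deposited a table of mean bead intensities that were not background-corrected or normalized, with a detection p-value per probe and array. From these, neqc of limma 3.58.1 (R 4.3.3) corrected the background against 936 negative controls, added an offset of 16, quantile normalized and took log2. Arrays 4 with 4R and 5 with 5R, which differed less than other arrays of their groups, were averaged. Group means were fitted over all 16 samples at once (lmFit, eBayes), and p-values were adjusted by Benjamini-Hochberg over 21938 probes. The labels give no experiment or batch, so p-values measure the spread between these pools of mice. Symbols were updated through RefSeq where identifiers matched (29586 probes). The fit was tested on simulated data.

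Named genes were the 15 largest rises and falls among called genes, up to 4 called members of each list (or its first 3), genes the study names, and called genes within 10 Mb of Mbd2. The members and lists were chosen with earlier results of these data known. Outside this rule, and after their values were seen, the text also names Gde1, Chad, Lpo, Mmp7, Wfdc12, Kif26a, Ccl17, Gvin1, Gm4841, Tapbpl, Cd177, Art2b, Btnl2, Apol10a, Snrnp70, Tnc, Cav1, Ltbp4, Lama2, Eng, Tek, Wars, Muc1, C4b and the further list members.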

Additional observations from a re-analysis of the deposited data

Results flagged for a closer look

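In groups of 4 samples, the farthest sample was looked for in each gene named by the rule and each list mean, and its gap to the nearest other sample was divided by the range of the group. Of 374 groups, 22 (5.88%) passed Dixon's limit, and chance alone flags about 1 in 20. Among class I genes as a list, the mean of KO 6 was low (9.90 against 10.25 to 10.30 in the other KO samples, ratio 0.88). Fabp6 was low in WT 4 (7.92 against 8.88 to 9.03, ratio 0.87). Col6a2 was low in WT 1 (6.99 against 7.85 to 7.94, ratio 0.897) and in KO 5 (6.16 against 6.52 to 6.58, ratio 0.862). The IGHG1 probe was high in WT 3 (5.51 against 4.36 to 4.48, ratio 0.896), as was the mean of the B and plasma cell list (6.87 against 6.11 to 6.22, ratio 0.85).

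KO 5 was high for Casp4, an inflammatory caspase (10.63 against 9.90 to 10.02, ratio 0.833), and low for Ddit3, a stress-response factor (9.68 against 10.15 to 10.19, ratio 0.923), and for Mbd3, a NuRD subunit (8.57 against 9.05 to 9.14, ratio 0.847). KO 7 was low for the chemokine gene Cxcl1 (11.01 against 11.47 to 11.52, ratio 0.905) and high for the means of ion and water transport (9.72 against 9.11 to 9.21, ratio 0.836) and of glia and neuron genes (5.74 against 5.43 to 5.44, ratio 0.964). KO 8 was low for Hba-a1 (7.86 against 8.64 to 8.79, ratio 0.831), for the erythroid mean (7.98 against 8.76 to 8.88, ratio 0.872) and for the macrophage mean (8.04 against 8.11 to 8.12, ratio 0.869).

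Among WT samples, WT 2 was low for Cdk1 (9.48 against 10.22 to 10.27, ratio 0.935) and for the constitutive proteasome mean (12.09 against 12.27 to 12.29, ratio 0.912). WT 3 was high for Ccr7 (6.43 against 5.73 to 5.77, ratio 0.937) and for the stem cell gene Olfm4 (5.08 against 4.44 to 4.53, ratio 0.855). WT 4 was low for Ddit3 (9.52 against 10.01 to 10.09, ratio 0.858) and for the keratin mean (10.44 against 10.70 to 10.71, ratio 0.966). WT 1 was low for the T and NK cell mean (5.71 against 5.94 to 5.96, ratio 0.921).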

How the results depend on the processing

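With the processing as reported, limma called 189 probes between genotypes under DSS (110 higher, 79 lower), 144 probes without DSS, and 0 for the interaction. Under DSS the count was 49 without background correction, 86 without a filter on dim probes, 109 with an offset of 50, and 420 with all arrays as separate samples, where repeats count as replicates. All 49 probes called without background correction were among the 189, so most of the 189 lost the call. The differences of dim genes were smaller there. Among the named genes, Ciita (1.99), Gm4951 (1.65), Nlrc5 (1.28), Ubd (2.28), H2-Q8 (2.49), Nt5e (-1.57) and Scgb2b27 (-1.53) were examples still called. Examples that lost the call were Ido1 (2.80), Psmb8 (2.09), Ifi47 (1.77), H2-K1 (1.49), Fxyd4 (-1.92), Tgm3 (-1.79) and Cyp2f2 (-1.06), and Cyp2d12 (-0.93), Cyp2d22 (-0.87), Esam (-0.86), Flt1 (-0.85), Tagln (-0.77), Col6a2 (-0.71), Robo4 (-0.59), Emcn (-0.54), Gbp10 (0.53), St8sia5 (-0.47) and Nos2 (0.43) also fell below the bound of 1 on size. Leaving out 1 sample gave 46 to 216 probes, the fewest without KO 5, with 54 without WT 2, 93 without KO 8 and 108 without WT 4. Of the 46 probes 44 were among the 189, and of the 54 all 54. Median scaling gave 260 probes, 109 higher and 151 lower. There were 56 higher and 78 lower without KO 7, and 49 higher and 59 lower without WT 4, so the balance of directions depends on these choices. Without DSS the count was 56 without background correction, 90 without a filter and 39 with only the groups of that contrast in the fit, and 73 to 279 when 1 sample was left out (fewest without Naive_WT 10, most without Naive_KO 16, with 83 without Naive_KO 15). The interaction stayed at 0 under every alternative run. Over the named genes, 3771 values kept their direction and side of the threshold or moved by less than 1 SD, 276 lost the call, 34 gained it, 21 uncalled values moved further, and 0 called values reversed. Among list medians, 1278 moved by less than 1 SD and 27 by more. No paired analysis was possible because the samples carry running numbers that no 2 groups share. Slide as a block was not run, since the file names no slides. With 4 samples a group, and several called genes near background in 1 genotype (51 of 74 higher and 49 of 66 lower genes were detected on all 10 DSS arrays), small differences of dim genes are not resolved. The causes of these dependences were not tested.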

Other observations

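Several programmes of the colon epithelium gave 0 calls between genotypes under DSS. Of 9 tuft cell genes 0 had an adjusted p under 0.05 in limma (lowest 0.0744, median 0.19). Of 18 stem cell and Wnt genes 0 did (lowest 0.213), and of 28 respiratory chain genes 0 did (lowest 0.192). The medians of the stem cell and respiratory chain lists, 0.07 and 0.02, turned to -0.02 and -0.07 with median scaling. Of 12 genes of interleukin 22 and interleukin 6 signalling 0 had an adjusted p under 0.05 (lowest 0.068), and of 25 cell death genes 2 did, both higher in KO (median 0.13).

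Complement genes differed in both directions. C4bp, which encodes an inhibitor of complement, was called lower (-1.48, adjusted p = 0.00158 in limma), with a dimmer probe at -0.38. Beside C2, which was called higher, the complement genes C1s1 (0.63) and Cfb (0.51) were higher in KO with adjusted p = 0.0361 and 0.045 in limma. Cd55, which protects cells from complement, was at -1.10 (adjusted p = 0.0281), and Saa1, the acute phase protein serum amyloid A, at -1.20 (adjusted p = 0.0149). Saa1 ran from 11.75 to 12.39 in WT and from 10.21 to 11.34 in KO, with no overlap, and was at -0.05 without DSS. Among mucins, Muc4, a membrane mucin like Muc1, was at 0.76 (adjusted p = 0.0487).

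Among partners and relatives of MBD2, 0 of 11 NuRD subunit genes and 0 of 11 genes of methylation readers and writers were called. Rbbp4, a histone-binding subunit, ran from 7.21 to 7.90 in WT and from 8.21 to 8.25 in KO (difference 0.66, adjusted p = 0.0123 in limma) and was at -0.09 without DSS. It was the only 1 of the 11 NuRD genes with an adjusted p under 0.05, though the largest difference in that list was 1.52. Mbd3, which stands in for MBD2 in a separate form of the complex, was at 0.38 (adjusted p = 0.216). These genes were chosen after their values were seen, apart from Mbd3.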
